A study of Rattus norvegicus with 14 samples.

Results

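The genes described here are 36 genes of sugar breakdown and of the response to low oxygen, taken as a written list of 19 glycolysis genes and 17 hypoxia genes. Of the 36, 34 have a probe set that the annotation gives to a single gene, 17 glycolysis and 17 hypoxia genes, and where a gene has several the probe set with the highest mean log2 signal was used. The low-signal filter asked for a signal above the array's own median on at least 2 of the 14 arrays, and 31 genes passed it, 16 of glycolysis and 15 of hypoxia, among 10088 genes tested in all. Hk2, Adm and Gys1 were too dim and are described without a test. Gapdh is read only by control probe sets on this array, and Pkm only by a probe set that it shares with a pseudogene, so neither entered the test.

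Peripheral blood mononuclear cells (PBMC), the lymphocytes and monocytes that a density gradient separates from whole blood, of female Wistar rats were hybridised to 14 single-colour expression arrays. The first groups were sampled before therapy, on day 0: NOCIA_B, rats without arthritis (3 arrays), and CIA_B, rats with collagen-induced arthritis raised by injections of bovine type II collagen in adjuvant (2 arrays). The other groups were sampled on day 34: NOCIAMS_A, rats without arthritis that received mechanical stimulation, MS_A, arthritic rats that received it, and MTXMS_A, arthritic rats that received it with methotrexate, a folate antagonist used against arthritis (3 arrays each). In mechanical stimulation a thin needle is inserted and turned in the skin, and the labels call this therapy acupuncture. The labels name the groups NORA, RA, HAP, AP and MTXAP, and pairing these names with the codes above is a reading made here. No unstimulated group of day 34 is among the arrays, so therapy and time cannot be told apart in any comparison of day 34 with day 0. Nothing in the labels says that the arrays of a group came from separate rats, and if they did not, the p-values below measure a spread that may be technical.

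Glycolysis turns glucose into pyruvate: transporters bring glucose in, a chain of cytosolic enzymes splits and oxidises it, and lactate dehydrogenase with a lactate exporter disposes of the end product. When oxygen falls, prolyl hydroxylases such as Egln1 and Egln3 stop marking the factor Hif1a for destruction, and Hif1a then raises many of the same glycolytic genes together with genes for blood vessel growth, mitophagy and iron and haem handling. Egln3 is itself among the genes that Hif1a raises. Activated lymphocytes and monocytes use glycolysis heavily, red cells depend on it, and platelets use it.

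The upstream sequences of 3 hypoxia genes, taken from RefSeq (build GRCr8, 250 bases ending just before the transcript start, read in the direction of the gene), are shown because these genes are the oxygen sensor Egln3, with the largest differences between groups among the tested members, Bnip3, whose signal correlated with it, and Ankrd37, whose groups differed in another pattern. Capitals mark ACGTG, the core bound by hypoxia-inducible factors, and GCGTG, on either strand (CACGT and CACGC read on the other). CACGTG holds ACGTG on both strands and counts as 2. The regions are chr6:77411016-77411265 (minus strand) for Egln3, chr1:203154963-203155212 (minus strand) for Bnip3 and chr16:53001257-53001506 (plus strand) for Ankrd37.
Egln3: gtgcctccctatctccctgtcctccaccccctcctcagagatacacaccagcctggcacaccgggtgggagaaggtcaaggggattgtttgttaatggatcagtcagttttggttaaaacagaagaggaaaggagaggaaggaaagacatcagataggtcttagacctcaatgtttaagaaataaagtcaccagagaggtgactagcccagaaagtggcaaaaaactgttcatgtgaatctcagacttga
Bnip3: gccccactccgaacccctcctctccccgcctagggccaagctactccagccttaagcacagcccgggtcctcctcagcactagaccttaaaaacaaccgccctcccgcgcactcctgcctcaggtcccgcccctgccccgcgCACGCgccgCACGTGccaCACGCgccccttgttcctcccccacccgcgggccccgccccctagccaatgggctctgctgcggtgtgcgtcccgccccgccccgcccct
Ankrd37: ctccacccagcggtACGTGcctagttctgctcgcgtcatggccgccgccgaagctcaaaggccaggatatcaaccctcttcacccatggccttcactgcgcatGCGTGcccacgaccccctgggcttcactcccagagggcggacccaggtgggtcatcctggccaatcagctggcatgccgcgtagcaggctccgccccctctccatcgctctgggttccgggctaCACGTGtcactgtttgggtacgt
The Egln3 stretch holds 0 of these cores, that of Bnip3 4 and that of Ankrd37 4, of which 2 and 3 are ACGTG. Over windows of 250 bases before and 50 after the start, 32 of the 36 genes have an entry, and 24 of them (75%) hold either core against 44.6% of 27457 genes in the table. The core ACGTG alone is held by 19 of the 32 (59.4%) and by 20.9% of all genes. A match is a description of the letters and not of a bound site.

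The arrays were scaled by the authors to the same trimmed mean of 500, and each array's median signal lay between 104 and 149. Of the markers of blood cell types, 14 of 14 T cell genes, 7 of 7 B cell genes and 11 of 13 monocyte genes that have a probe set passed the filter, and so did 10 of 10 platelet genes and 12 of 14 erythroid genes. All 9 neutrophil genes with a probe set passed as well. A score per list and array, the mean of its tested genes after centring each on its mean over the 14 arrays, put 2 arrays apart: the erythroid score was 2.55 in NOCIA_B replicate 3 and -5.0 in MTXMS_A replicate 3, and between -1.0 and 1.21 in the others.

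Across all 6 comparisons of groups, limma's moderated test called none of the 31 genes at an adjusted p under 0.05. It called none of the 10088 genes either, so the share of all genes called by this rule is 0% in each comparison. At an unadjusted p under 0.05, 3 of the 31 passed in CIA_B against NOCIA_B, where 8.13% of all genes did. The counts were 4 in MS_A against CIA_B (6.99% of all genes), 4 in MTXMS_A against CIA_B (5.09%) and 5 in NOCIAMS_A against NOCIA_B (5.74%). They were 2 in MTXMS_A against MS_A (15%) and 1 in MS_A against NOCIAMS_A (4.36%). The same linear model without moderation also called 0 of the 31 at the adjusted threshold in every comparison. The values below are therefore descriptions of levels with their errors, and a gene is said to pass the study's thresholds when its unadjusted p was under 0.05 and its fold change over 2. Log2 fold changes are on the scale of log2 signal and carry the standard error (SE) of the fit.

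Egln3, the hypoxia-inducible prolyl hydroxylase, had the widest differences of the list. Its log2 signals were 8.08, 9.65 and 9.94 in NOCIA_B, and 7.63 and 7.64 in CIA_B. On day 34 they were 8.12, 8.14 and 8.36 in NOCIAMS_A, 8.87, 9.47 and 9.63 in MS_A, and 8.64, 8.61 and 7.76 in MTXMS_A. Both arthritic arrays of day 0 lay below every other array, and the 3 MS_A arrays lay above all arrays except the 2 higher ones of NOCIA_B. The fold change of CIA_B over NOCIA_B was -1.59 ± 0.48 (adjusted p = 0.583), and the arrays did not overlap. MS_A over CIA_B gave 1.69 ± 0.48 (adjusted p = 0.616), again without overlap. With arrays weighted by their quality, the first difference was -1.89 ± 0.30 with limma's adjusted p = 0.0311, a setting that called 4.21% of all genes. Leaving out NOCIA_B replicate 1 gave -2.16 ± 0.33 (adjusted p = 0.0406), and 0.991% of all genes were called. In every other alternative neither difference was called. Without NOCIA_B replicate 3 and MTXMS_A replicate 3 the differences were -1.23 and 1.69.

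**Figure D1:**
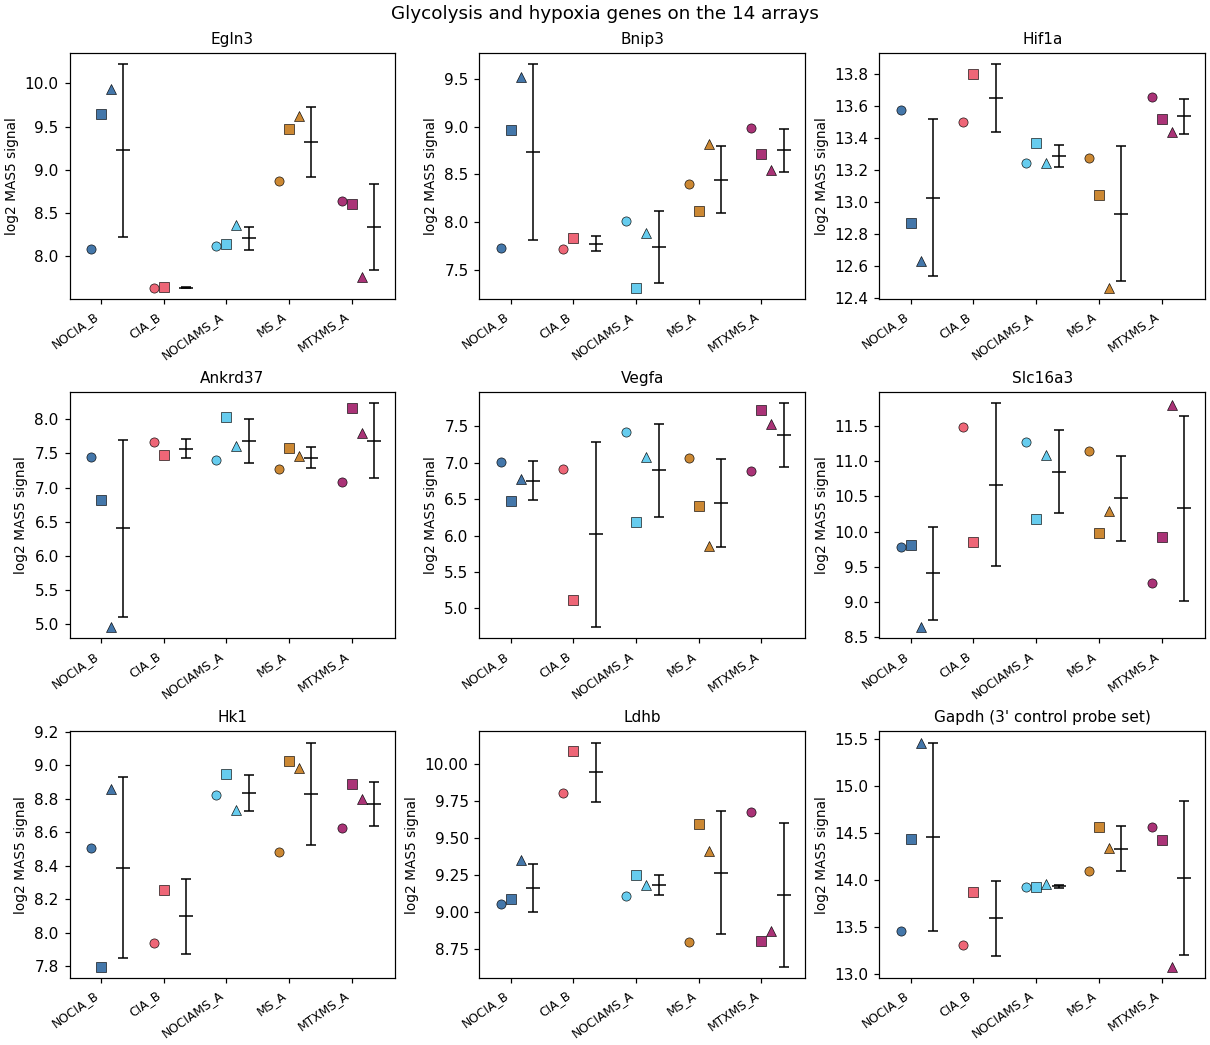
Log2 signal (y axis, a separate scale per panel) of 9 genes on each array, by group (x axis), with a circle, square and triangle for replicates 1, 2 and 3 and a bar for the group mean ± SD. Egln3 is lowest in both CIA_B arrays (7.63 and 7.64), while Gapdh, read by its 3′ control probe set, spans 13.08 to 15.46.

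In the rats without arthritis the sign of the difference was the opposite. NOCIAMS_A over NOCIA_B was -1.02 ± 0.43 for Egln3 (adjusted p = 0.747), with overlapping arrays. Its unadjusted p was above 0.05 when NOCIA_B replicate 2 or 3 or any 1 NOCIAMS_A array was left out, with values from -1.10 to -0.66, the last without NOCIA_B replicate 3. The difference between the change in arthritic rats (MS_A minus CIA_B) and that in rats without arthritis (NOCIAMS_A minus NOCIA_B) was 2.71 ± 0.64 (adjusted p = 0.36). All 4 groups enter this difference, and it shares its arrays with the comparisons above. It was called with array weights (3.03 ± 0.40, limma adjusted p = 0.0182), as were 4 of the 31 members and 8.84% of all genes. It was also called when NOCIA_B replicate 1 was left out, at 3.28 ± 0.43 (adjusted p = 0.0229), as were 3 members and 5.37% of all genes. Among arthritic and other rats that had both been stimulated, MS_A lay above NOCIAMS_A by 1.12 ± 0.43 (adjusted p = 0.81) and no array overlapped. Its unadjusted p was above 0.05 when NOCIAMS_A replicate 1 or 2 or MS_A replicate 2 or 3 was left out, with values from 0.96 to 1.08. With methotrexate added, MTXMS_A lay below MS_A by -0.99 ± 0.43 (adjusted p = 0.316), short of the 2-fold threshold, and by -0.70 without MTXMS_A replicate 3.

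Platelet marker signals went with that of Egln3 over the 14 arrays. Platelets, the small anucleate cells of clotting, come down with mononuclear cells in a density gradient. Their score over 10 genes was -0.64, 0.87 and 1.34 in NOCIA_B, and -1.14 and -0.60 in CIA_B. It ran from -0.45 to -0.09 in NOCIAMS_A, from -0.05 to 0.57 in MS_A and from -0.74 to 0.56 in MTXMS_A. The median fold change of the 10 genes was -1.45 in CIA_B over NOCIA_B, with 0 of 10 above 0, and 1.26 in MS_A over CIA_B, with 10 of 10 above 0. The 12 erythroid genes had medians of -1.38 and 0.84 in the same comparisons. The difference of the erythroid score in CIA_B over NOCIA_B was -1.35, and -0.51 without NOCIA_B replicate 3, while that of the platelet score was -1.40 and -0.99. In MTXMS_A over MS_A the platelet score differed by -0.18, and by 0.23 without MTXMS_A replicate 3. Egln3 was lower in MTXMS_A with and without that array. Over the 14 arrays Egln3 followed the platelet score with r = 0.91, and after subtracting each group's mean with r = 0.96. Over 12 arrays, without NOCIA_B replicate 3 and MTXMS_A replicate 3, r was 0.87. These correlations describe 14 points that share their RNA and scaling, and the part of platelets in the Egln3 result was not tested. In such bulk samples fewer cells of a type and less RNA per cell cannot be told apart.

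Among the other tested members, the genes whose signals were most like that of Egln3 over the 14 arrays were mostly enzymes of glycolysis. Correlations of Egln3 with single genes outside the list were not computed. The correlation with Egln3 was 0.89 for Pgk1, phosphoglycerate kinase, 0.88 for Ldha, the lactate dehydrogenase subunit that favours lactate, 0.83 for Aldoa, aldolase, 0.78 for Pfkp, a phosphofructokinase, and 0.72 for Tpi1, triosephosphate isomerase. Bnip3, a mitophagy receptor, had 0.71. Each of these also correlated with the platelet score, with r from 0.57 for Tpi1 to 0.89 for Pgk1 and 0.83 for Bnip3. The 3′ control probe set of Gapdh had r = 0.84 with Egln3. At the other end stood Hif1a with -0.84, Pdk1, a kinase that keeps pyruvate out of mitochondria, with -0.79 and Kdm3a, a histone demethylase, with -0.78. The other tested probe set of Pdk1 had the sign of Egln3 in CIA_B over NOCIA_B (-0.29), MS_A over CIA_B (0.20) and MTXMS_A over MS_A (-0.25). It also did in NOCIAMS_A over NOCIA_B (-0.03), and had the opposite sign in MTXMS_A over CIA_B and MS_A over NOCIAMS_A (-0.05 each). Over the 16 glycolysis genes the correlations with Egln3 ran from -0.61 to 0.89, with 11 above 0, and over the other 14 hypoxia genes from -0.84 to 0.71, with 6 above 0, so the list did not vary as 1 unit.

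**Figure D2:**
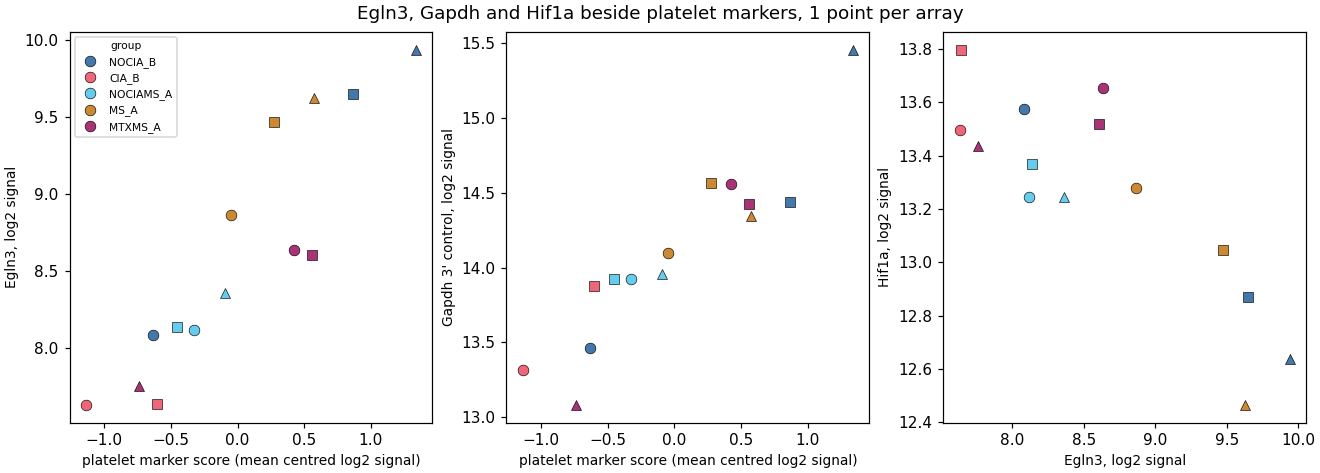
Each point is 1 array, coloured by group with a circle, square and triangle for replicates 1, 2 and 3. Left and middle: log2 signal of Egln3 and of the Gapdh 3′ control probe set (y axes) against the platelet marker score (x axis), r = 0.91 and 0.93. Right: log2 signal of Hif1a (y axis) against that of Egln3 (x axis), r = -0.84.

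Hif1a, the factor whose stability Egln3 controls, had log2 signals of 13.58, 12.87 and 12.64 in NOCIA_B, and 13.50 and 13.80 in CIA_B. They were 13.25, 13.37 and 13.25 in NOCIAMS_A, 13.28, 13.04 and 12.47 in MS_A, and 13.65, 13.52 and 13.44 in MTXMS_A. The MS_A arrays lay below both CIA_B arrays and below all MTXMS_A arrays. MS_A over CIA_B was -0.72 ± 0.30 (adjusted p = 0.616), and MTXMS_A over MS_A 0.61 ± 0.27 (adjusted p = 0.32). Without MS_A replicate 3 these were -0.49 and 0.37. The difference between arthritic and other rats in the change to day 34 was -0.98 ± 0.40 (adjusted p = 0.36), and with array weights -1.04 ± 0.28 with limma's adjusted p = 0.0443. With these weights 8.84% of all genes were called for this difference. The activity of Hif1a is set mainly through the stability of the protein, which arrays do not read. The correlation of Hif1a with the platelet score was -0.67. Egln1, the main oxygen sensor of most cells, spanned only 0.82 on the log2 scale over the 14 arrays and passed no threshold.

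Bnip3 had its lowest group means in CIA_B and NOCIAMS_A. Its log2 signals were 7.73, 8.96 and 9.52 in NOCIA_B, 7.72 and 7.83 in CIA_B, and 8.01, 7.31 and 7.89 in NOCIAMS_A. They were 8.40, 8.12 and 8.81 in MS_A and 8.99, 8.72 and 8.55 in MTXMS_A. Every stimulated arthritic array lay above both CIA_B arrays and above all NOCIAMS_A arrays. MTXMS_A over CIA_B was 0.98 ± 0.43 (adjusted p = 0.922), MS_A over CIA_B 0.67, and CIA_B over NOCIA_B -0.96 ± 0.43 (adjusted p = 0.583). The last was -0.57 without NOCIA_B replicate 3 and -1.47 without replicate 1. MTXMS_A over MS_A was 0.31 for Bnip3, where Egln3 had -0.99. NOCIAMS_A over NOCIA_B was -1.0, and -0.61 without NOCIA_B replicate 3. The difference between the changes of arthritic and other rats was 1.66 ± 0.58 (adjusted p = 0.36). It was 2.17 ± 0.41 without NOCIA_B replicate 1 (limma adjusted p = 0.026) and 1.75 ± 0.40 with array weights (adjusted p = 0.0272). Those settings called 5.37% and 8.84% of all genes for this difference.

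Vegfa and Ankrd37 also passed the study's thresholds, each in a comparison with 1 array far from the rest. Vegfa, the growth factor of blood vessels, had log2 signals of 7.01, 6.47 and 6.78 in NOCIA_B, 6.92 and 5.11 in CIA_B, and 7.42, 6.19 and 7.09 in NOCIAMS_A. Its values were 7.06, 6.41 and 5.85 in MS_A and 6.89, 7.72 and 7.53 in MTXMS_A. It was among the dimmer genes, above its array's median on 7 of 14 arrays. The groups MTXMS_A and CIA_B overlapped, and their difference of 1.37 ± 0.54 (adjusted p = 0.921) was 0.46 without CIA_B replicate 2, the array at 5.11, and 2.27 without CIA_B replicate 1. Leaving out MTXMS_A replicate 2 or 3 also put its unadjusted p above 0.05, at 1.19 and 1.29. Another probe set of Vegfa, too dim to pass the filter, gave -0.48 in MTXMS_A over CIA_B.

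Ankrd37, an ankyrin-repeat protein known as a hypoxia-inducible gene, had 7.44, 6.82 and 4.96 in NOCIA_B and 7.67 and 7.47 in CIA_B as log2 signals. The remaining values were 7.40, 8.03 and 7.61 in NOCIAMS_A, 7.28, 7.59 and 7.46 in MS_A, and 7.09, 8.17 and 7.80 in MTXMS_A. One array, NOCIA_B replicate 3, was lower than all others by over 1 unit. NOCIAMS_A over NOCIA_B was 1.27 ± 0.51 (adjusted p = 0.747) with overlapping arrays, and 0.55 without that array. Without NOCIAMS_A replicate 2 or 3 the values were 1.09 and 1.31, with an unadjusted p above 0.05.

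The other hypoxia genes passed no threshold of the study in any comparison. Their widest range belonged to Mxi1, a MYC antagonist, at 3.21 on the log2 scale over the 14 arrays, from 9.96 in MTXMS_A replicate 3 to 13.17 in NOCIA_B replicate 3. Those are the 2 arrays with the extreme erythroid scores, and Mxi1 followed the erythroid score with r = 0.88. Without them its range over 12 arrays was 0.71 and r was 0.56. The part of erythroid RNA in this range was not tested. Bhlhe40, a transcription repressor, spanned 2.75 (0.91 over those 12 arrays) and correlated with the erythroid score at r = -0.83 (-0.01 over the 12). P4ha1, a collagen prolyl hydroxylase, spanned 2.42, Hmox1, which breaks down haem, 1.96, and Gbe1, a glycogen branching enzyme, 0.73. P4ha1 followed the monocyte score with r = 0.79, the highest value of the hypoxia genes. Ndrg1 and Pdk1 have 2 tested probe sets each that differ in sign in MS_A over CIA_B, 0.30 against -0.87 for Ndrg1 and -0.60 against 0.20 for Pdk1. Of the dim genes, Adm, the vasodilator adrenomedullin, ran from 2.94 to 6.55 and Gys1, muscle glycogen synthase, from 4.37 to 7.34 in log2 signal.

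Gapdh, the enzyme that oxidises glyceraldehyde phosphate, served the study as the calibrator of its PCR measurements. Its 3′ control probe set gave log2 signals of 13.46, 14.44 and 15.46 in NOCIA_B, and 13.31 and 13.88 in CIA_B. It gave 13.92, 13.92 and 13.95 in NOCIAMS_A, 14.09, 14.56 and 14.34 in MS_A, and 14.56, 14.42 and 13.08 in MTXMS_A. The 3 NOCIAMS_A arrays were nearly level, while the NOCIA_B arrays spread by 3.98-fold and all 14 arrays by 5.18-fold. The extremes were NOCIA_B replicate 3 and MTXMS_A replicate 3, and without these the spread over 12 arrays was 2.38-fold. Of 818 tested genes with a mean log2 signal over 12, 106 (13%) had a wider range than Gapdh, and their median range was 1.09 against 2.37 for Gapdh. The middle and 5′ control probe sets spread by 4.23-fold and 4.98-fold, and the ratio of 3′ to 5′ Gapdh signal stayed between 0.949 and 1.18. The same ratio for beta-actin, another control, ran from 1.97 to 3.01 in NOCIA_B, 2.77 to 2.83 in CIA_B and 2.44 to 2.69 in MS_A. It ran from 3.35 to 4.36 in NOCIAMS_A and from 3.13 to 5.01 in MTXMS_A, with the highest value in MTXMS_A replicate 3. What this ratio contributes to the differences between groups was not tested. The Gapdh signal of MS_A lay above CIA_B by 0.74 and above NOCIAMS_A by 0.40 without overlap. That of CIA_B lay below NOCIA_B by -0.86 with overlap, or by -0.35 without NOCIA_B replicate 3. Gapdh followed the platelet score with r = 0.93 over the 14 arrays, and with r = 0.92 over those 12. With the erythroid score r was 0.78 over the 14 arrays, and 0.80 after subtracting group means, and it was not computed over those 12. The arrays left out are those with the extreme erythroid scores. The part of platelets and of erythroid RNA in the spread of Gapdh was not tested. No test was made on the control probe sets.

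Among the uptake steps, Slc2a1 and Slc2a3, the glucose transporters of most blood cells, passed no threshold by the probe sets used. Their log2 signals spanned 0.91 and 1.81 over the 14 arrays. A dimmer tested probe set of Slc2a3 gave 0.99 in CIA_B over NOCIA_B, -1.07 in MS_A over CIA_B and 1.26 in MTXMS_A over MS_A. The probe set used gave 0.51, -0.08 and 0.36 there. In the other comparisons the dimmer one lay between -0.27 and 0.19. Hk1, the hexokinase that traps glucose as its phosphate, was lowest in the arthritic rats of day 0 and in 1 array without arthritis. Its log2 signals were 8.51, 7.80 and 8.86 in NOCIA_B, 7.94 and 8.26 in CIA_B, and 8.82, 8.95 and 8.74 in NOCIAMS_A. They were 8.48, 9.03 and 8.98 in MS_A and 8.63, 8.89 and 8.80 in MTXMS_A. All 9 arrays of day 34 lay above both CIA_B arrays. MS_A over CIA_B was 0.73 ± 0.29 (adjusted p = 0.616) and MTXMS_A over CIA_B 0.67 ± 0.29 (adjusted p = 0.922), both short of 2-fold. Hk2, the inducible hexokinase, was below the array median on all 14 arrays, with log2 signals from 2.52 to 6.35.

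Eno1, Pgam1, Gpi and Pgk1 had the narrowest ranges of the tested glycolysis genes. Eno1, enolase, spanned 0.65 on the log2 scale over the 14 arrays, Pgam1, phosphoglycerate mutase, 0.68, Gpi, which turns glucose phosphate into fructose phosphate, 0.78, and Pgk1 0.83. Gpi was nevertheless separated in NOCIAMS_A over NOCIA_B, by 0.46 ± 0.19 (adjusted p = 0.747), with no overlap. It was also separated in CIA_B over NOCIA_B, by 0.40, with no overlap. Aldoa, Pfkp and Tpi1 spanned 1.39, 1.40 and 1.24. Pfkl, the liver-type phosphofructokinase, spanned more than any of these, and 1.22 over the 12 arrays without NOCIA_B replicate 3 and MTXMS_A replicate 3. Pfkfb3, which makes the activator of phosphofructokinase, spanned 2.21 (1.23 over those 12), and its lowest array was NOCIA_B replicate 3 at 8.62. Pooled within groups, the median SD was 0.34 for the 16 tested glycolysis genes, 0.51 for the 15 tested hypoxia genes and 0.36 for all genes.

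Ldhb, the subunit that favours pyruvate, had log2 signals of 9.05, 9.09 and 9.35 in NOCIA_B, 9.80 and 10.08 in CIA_B, and 9.11, 9.25 and 9.18 in NOCIAMS_A. They were 8.80, 9.59 and 9.41 in MS_A and 9.67, 8.81 and 8.87 in MTXMS_A. Both CIA_B arrays lay above the other 12. CIA_B over NOCIA_B was 0.78 ± 0.30 (adjusted p = 0.583), MS_A over CIA_B -0.67 ± 0.30 (adjusted p = 0.616) and MTXMS_A over CIA_B -0.82 ± 0.30 (adjusted p = 0.913). MS_A over CIA_B was -0.44 without MS_A replicate 1. T cell marker signals lay on the same side in these comparisons: 13 of 14 genes were above 0 in CIA_B over NOCIA_B (median 0.33), 11 of 14 below 0 in MS_A over CIA_B (median -0.39) and 14 of 14 below 0 in MTXMS_A over CIA_B (median -0.55). The T cell score ran from 0.23 to 0.40 in CIA_B and from -0.44 to 0.35 in the other groups, and Ldhb correlated with it at r = 0.59, or 0.29 after subtracting group means. The part of T cells in the Ldhb values was not tested. Ldha had -0.56 in CIA_B over NOCIA_B and 0.41 in MS_A over CIA_B, neither past an unadjusted p of 0.05. Its difference between the changes of arthritic and other rats was 0.92 ± 0.42 (adjusted p = 0.378), and it was called with array weights (1.09 ± 0.28, limma adjusted p = 0.0392) and when NOCIA_B replicate 1 was left out, at 1.27 ± 0.30 (adjusted p = 0.0404). Those settings called 8.84% and 5.37% of all genes for this difference.

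Slc16a3, the exporter that carries lactate out of glycolytic cells, had the widest range of the glycolysis genes, 3.16 on the log2 scale (2.22 over 12 arrays without NOCIA_B replicate 3 and MTXMS_A replicate 3). Its log2 signals were 9.78, 9.80 and 8.64 in NOCIA_B, 11.48 and 9.85 in CIA_B, and 11.28, 10.18 and 11.09 in NOCIAMS_A. They were 11.14, 9.98 and 10.29 in MS_A and 9.26, 9.93 and 11.80 in MTXMS_A. The 3 NOCIA_B arrays lay below all CIA_B, NOCIAMS_A and MS_A arrays, while MTXMS_A ran from below to above them. NOCIAMS_A over NOCIA_B was 1.44 ± 0.65 (adjusted p = 0.747). Leaving out any 1 of NOCIA_B replicates 1, 2 and 3, NOCIAMS_A replicates 1 and 3, MS_A replicates 2 and 3 and MTXMS_A replicate 2 put its unadjusted p above 0.05, with values from 1.06 to 1.64. CIA_B over NOCIA_B gave 1.26 and was not past the thresholds.

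**Figure D3:**
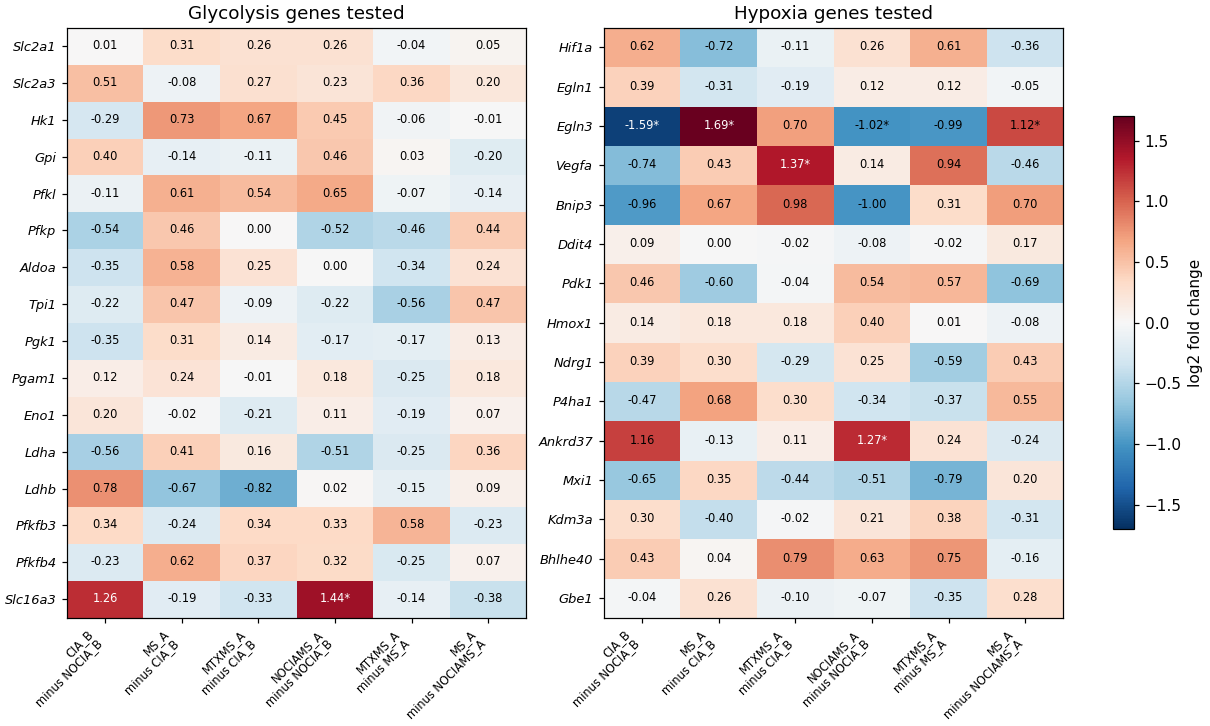
Log2 fold changes (colour and printed value) of the 16 glycolysis genes (left) and 15 hypoxia genes (right) tested, with genes on the y axis and the 6 comparisons on the x axis. An asterisk marks an unadjusted p under 0.05 with a fold change over 2, which 7 of the cells carry, 4 of them for Egln3.

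Taken by comparison, the members that passed the study's thresholds were few, and their counts are set beside the share of all genes that passed. In CIA_B over NOCIA_B, 0 of 31 were higher and 1 lower, against 0.476% and 3.86% of all genes. In MS_A over CIA_B, 1 was higher and 0 lower, against 2.48% and 0.644%. In MTXMS_A over CIA_B, 1 was higher and 0 lower, against 1.66% and 0.397%. In NOCIAMS_A over NOCIA_B, 2 were higher and 1 lower, against 0.783% and 1.11%. In MTXMS_A over MS_A, 0 passed either way, against 1.61% and 2.38%, and in MS_A over NOCIAMS_A 1 was higher and 0 lower, against 0.704% and 0.555%. For the difference between the changes of arthritic and other rats, 2 were higher and 0 lower, against 5.35% and 3.69%. Over the 6 comparisons of groups Egln3 made 4 of the 7 passes.

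Counted by arrays that did not overlap, 8 of the 31 genes were higher and 4 lower in MS_A than in CIA_B, where 17.5% of all genes were higher and 19.6% lower without overlap. The glycolysis genes had 6 higher and 1 lower of 16, and the hypoxia genes 2 higher and 3 lower of 15. In MTXMS_A against CIA_B 6 were higher and 2 lower, beside 8.9% and 13.2% of all genes. In CIA_B against NOCIA_B 5 were higher and 1 lower, beside 12.7% and 8.65%. NOCIAMS_A against NOCIA_B had 2 higher and 0 lower, beside 7.24% and 2.54%. MTXMS_A against MS_A had 1 each way, beside 11.8% each way. MS_A against NOCIAMS_A had 2 higher and 0 lower, beside 7.31% and 9.91%.

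The median log2 fold change of the 16 glycolysis genes was 0.31 in MS_A over CIA_B, with 10 above 0, where the median of all genes was 0.01. It was 0.15 in MTXMS_A over CIA_B (all genes -0.02) and 0.20 in NOCIAMS_A over NOCIA_B (all genes 0.10). In CIA_B over NOCIA_B it was -0.05 (all genes 0.08), and in MS_A over NOCIAMS_A 0.08 (all genes -0.03). In MTXMS_A over MS_A it was -0.16, with 13 of 16 below 0, where all genes had -0.04. The 15 hypoxia genes had medians of 0.14, 0.18, -0.02, 0.14, 0.12 and -0.05 in CIA_B over NOCIA_B, MS_A over CIA_B, MTXMS_A over CIA_B, NOCIAMS_A over NOCIA_B, MTXMS_A over MS_A and MS_A over NOCIAMS_A. CIA_B is the reference in 2 of these comparisons and MS_A enters 3, so the medians are not independent. Under median centring the all-gene median of NOCIAMS_A over NOCIA_B was 0.03.

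The array scores show how the glycolysis and the hypoxia genes lay in single samples. The glycolysis score ranged from -0.33 to 0.01 in NOCIA_B, from -0.17 to 0.02 in CIA_B, from -0.02 to 0.09 in NOCIAMS_A, from -0.07 to 0.41 in MS_A and from -0.13 to 0.10 in MTXMS_A. All groups overlapped with at least 1 other, and MS_A replicate 3 was the highest array. The monocyte score was also highest there, at 0.73, and lowest in MTXMS_A replicate 1, at -1.05. Over the 14 arrays the glycolysis score followed the monocyte score with r = 0.81, and with r = 0.84 after subtracting group means or 0.81 over 12 arrays without NOCIA_B replicate 3 and MTXMS_A replicate 3, but the platelet score with only 0.20. Pgam1 was the glycolysis gene closest to the monocyte score, with r = 0.85. The hypoxia score ran from -0.18 to 0.26 over the groups and followed the monocyte score with r = 0.43. With the T cell score r was -0.65 for the hypoxia score (-0.56 after subtracting group means) and -0.45 for the glycolysis score (-0.62). These values share RNA and scaling within an array, and the part of monocytes and T cells in the scores was not tested.

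**Figure D4:**
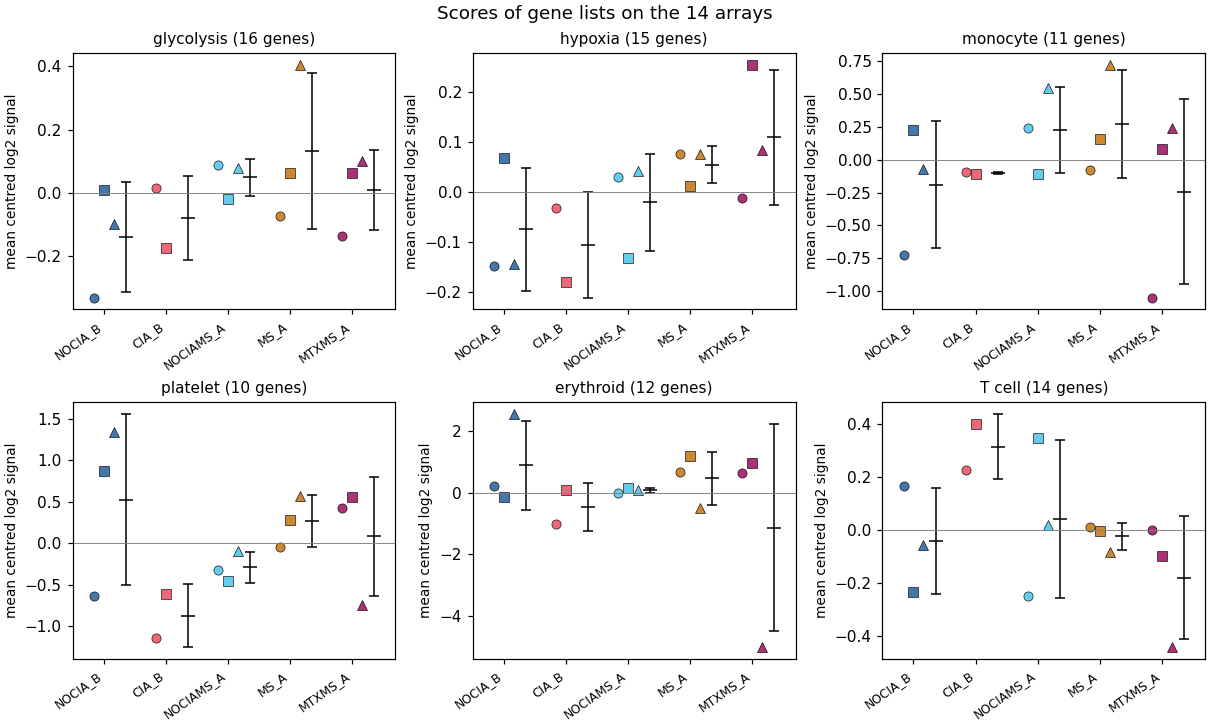
Score of 6 gene lists (y axis, mean of log2 signals centred per gene) on each array by group (x axis), with a circle, square and triangle for replicates 1, 2 and 3 and a bar for the mean ± SD. The glycolysis score peaks in MS_A replicate 3 (0.41), where the monocyte score is 0.73, and the erythroid score of MTXMS_A replicate 3 is -5.0.

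Further genes of the pathways, 28 tested of glycolysis and the adjoining routes and 26 tested of the hypoxia response, were read from lists written with earlier results of these data known. None passed an adjusted p of 0.05 in limma's test. The counts below stand beside the shares of all genes past the study's thresholds, higher and lower. These shares were 0.476% and 3.86% in CIA_B over NOCIA_B, 2.48% and 0.644% in MS_A over CIA_B, and 1.66% and 0.397% in MTXMS_A over CIA_B. Leaving out single arrays was not examined for the further genes. In CIA_B over NOCIA_B, 1 further glycolysis gene passed the study's thresholds, Eno3, muscle enolase (1.05 ± 0.38), and 3 hypoxia genes did: Rora, a nuclear receptor, at 1.75 ± 0.59, Nos2, which makes nitric oxide, at -2.19 ± 0.74, and Plod2, a collagen lysyl hydroxylase, at -1.59 ± 0.45. In MS_A over CIA_B, 0 further glycolysis genes and 2 hypoxia genes passed, Stc2, a secreted glycoprotein, at 2.79 ± 0.74 and Rora at -1.61 ± 0.59. In MTXMS_A over CIA_B, Eno3 passed at -1.34 ± 0.38, Stc2 at 2.28 ± 0.74 and Plod2 at 1.15 ± 0.45.

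In NOCIAMS_A over NOCIA_B, Slc2a6, a glucose transporter of lysosomes, passed at 1.22 ± 0.53 and Plod2 at -1.0 ± 0.40. MTXMS_A over MS_A had 2 further glycolysis genes, both lower: Pdk2, a kinase of the pyruvate dehydrogenase complex, at -2.16 ± 0.57 and Slc2a6 at -1.59 ± 0.53. It had 3 further hypoxia genes, Nos2 at -2.29 ± 0.66, Rora at 1.33 ± 0.53 and Nfe2l2, the regulator of the antioxidant response, at 1.10 ± 0.46. In MS_A over NOCIAMS_A only Stc2 passed, at 2.23 ± 0.66. Of all genes, 0.783% passed higher and 1.11% lower in NOCIAMS_A over NOCIA_B, and 1.61% and 2.38% in MTXMS_A over MS_A. In MS_A over NOCIAMS_A the shares were 0.704% and 0.555%. The median of the 28 further glycolysis genes was 0.13 in MS_A over CIA_B and -0.26 in MTXMS_A over MS_A, where 7 of 28 were above 0, beside medians of all genes of 0.01 and -0.04.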

How the data were processed

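PBMC of rats were measured on 14 Affymetrix arrays of 5 groups. The deposited intensity values are MAS5 signals on a linear scale that the authors made and scaled to a trimmed mean of 500, and the labels name the affy package. Arrays with identical values were looked for, and 0 pairs were found. Detection calls were not used here. Of 31042 probe sets without the 57 controls, 20826 have 1 gene symbol, 436 several and 9780 none. Signals were taken as log2, and 18515 probe sets above the array median on at least 2 arrays were kept. The model of limma 3.58.1 (R 4.3.3) was fitted over all 5 groups, with Benjamini-Hochberg adjustment over these 18515 probe sets, and genes (10088) were counted by their probe set of highest mean. The study's thresholds (unadjusted p under 0.05, fold over 2) were counted as well. The number of arrays limits the precision. Members and lists were chosen with earlier results of these data known. All 36 members could be named. Values per array are given for members past the study's thresholds in a comparison or in the difference, filled up by smallest p to 3 glycolysis and 3 hypoxia genes, and for Gapdh, Hif1a and Egln3. Of the further genes, up to 4 per comparison past the thresholds were named by smallest p. The study describes drawing the total blood of an animal and then killing it, so a shared replicate number was not taken to mark a shared rat. The labels do not say whether the number marks anything else, such as a processing round. Residuals of same-numbered arrays correlated with a mean r of 0.03 over 26 pairs. The fit was tested on simulated data. Alternatives were 11 other settings and leaving out each of the 14 arrays.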

Additional observations from a re-analysis of the deposited data

How the results depend on the processing

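None of the members past the study's thresholds changed sign under any alternative. The further genes of the pathways were not followed under the alternatives. The count of members past an adjusted p of 0.05 was 0 in every comparison and setting, except that array weights gave 1 in CIA_B minus NOCIA_B (4.21% of all genes) and 4 in the difference between the changes of arthritic and other rats (8.84%), and leaving out 1 array gave 0 to 1 and 0 to 3 there, the highest without NOCIA_B replicate 1 (0.991% and 5.37% of all genes). Members past the study's thresholds numbered 2 with array weights in CIA_B minus NOCIA_B (1 to 3 leaving out 1 array) and 2 without the low-signal filter in MS_A minus CIA_B (1 to 3). In MTXMS_A minus CIA_B they numbered 0 with a pseudocount of 32 or with the compared groups alone and 2 with array weights (0 to 3). In NOCIAMS_A minus NOCIA_B they numbered 1 with that pseudocount, without moderation or with the compared groups alone, and 0 without NOCIA_B replicate 3 and MTXMS_A replicate 3 (0 to 3). MTXMS_A minus MS_A gave 1 without the filter (0 to 2), MS_A minus NOCIAMS_A 0 to 2, and the difference 6 with array weights (2 to 7). The cause was not tested. The share of all genes past the study's thresholds was not counted under the alternatives. These counts of members are therefore not a result about the members.

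The hypoxia median of CIA_B minus NOCIA_B was 0.25 with quantile normalization, -0.078 with array weights and 0.0266 without NOCIA_B replicate 3 and MTXMS_A replicate 3 (0.0266 to 0.25 leaving out 1 array), and the glycolysis median ran from -0.17 to 0.19. In MS_A minus CIA_B the hypoxia median was 0.0365 over the mean of a gene's probe sets (-0.18 to 0.22), and the glycolysis median stayed between 0.19 and 0.36. In MTXMS_A minus MS_A the hypoxia median was 0.24 without the filter (0.0227 to 0.25). In the difference the glycolysis median was 0.23 with array weights (-0.14 to 0.15), and the hypoxia median was -0.0581 with quantile normalization, -0.23 without the filter and over the mean of probe sets, 0.17 with array weights and 0.24 without NOCIA_B replicate 3 and MTXMS_A replicate 3 (-0.32 to 0.25). The medians near 0 therefore have no settled direction.

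With the replicate number as a block, although the numbers were not taken to mark a shared rat, the hypoxia median of MTXMS_A minus CIA_B was 0.13 in place of -0.02. In that setting 2 members in place of 3 passed the study's thresholds in NOCIAMS_A minus NOCIA_B, and no adjusted call changed. Groups of 2 and 3 arrays limit every value here.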
